A study of Mus musculus with 11 samples.

Results

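The tuberous sclerosis (Tsc) complex and the protein kinase complex it restrains were followed through 10 genes of the mouse mammary gland, out of 22196 genes with deposited estimates. Earlier results of these data were known when these genes were chosen. The 10 genes were taken by name, by a rule that uses no measured value: Tsc1, Tsc2 and Tbc1d7, whose products form the Tsc complex; Rheb, the small GTPase on which that complex acts; Mtor, Rptor, Mlst8 and Akt1s1, which encode subunits of mTOR complex 1 (mTORC1); Rictor, which encodes the defining subunit of mTOR complex 2 (mTORC2); and Rps6kb1, which encodes the ribosomal protein S6 kinase, a substrate of mTORC1. RNA was sequenced from the inguinal mammary gland, at PND16.5 (postnatal day) by the age label and 16 days after delivery by the protocol, from animals on a normal chow diet that also had access to milk. The knockout group had 6 libraries of genotype Tsc1-fl/fl; Adipoq-Cre-Tg/+, and the wild-type group had 5 libraries of genotype Tsc1-fl/fl; Adipoq-Cre-+/+. Both groups thus carried floxed Tsc1 alleles, and the knockout group alone carried the Cre recombinase transgene, whose Adipoq (adiponectin) promoter is active in adipocytes. The whole gland also holds epithelial, immune, vascular and other cells in which this promoter is not expected to act, and the labels do not name the floxed exons. The labels do not tie each library to a separate animal in words, so the p-values measure the spread between these libraries.

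The Tsc complex is a GTPase-activating protein: it turns Rheb from its GTP-bound to its GDP-bound form. GTP-bound Rheb activates mTORC1 on the lysosome surface, where amino acids have brought mTORC1 through the Rag GTPases, and active mTORC1 promotes protein, lipid and nucleotide synthesis and restrains autophagy. Insulin, acting through the kinase Akt, inhibits the Tsc complex, and energy shortage, acting through AMP-activated kinase, stimulates it. Much of this control is exerted on the proteins by phosphorylation and localisation, which RNA sequencing does not measure.

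The 11 libraries held between 25817975 and 37894237 estimated reads. The secretory epithelium supplied much of that RNA: 8 of its markers, caseins and other milk genes among them, together held 422484 to 593727 CPM in wild-type glands and 340439 to 477325 in knockout glands. The unit CPM gives a gene's count relative to the library total after TMM scaling, which sets the library totals so that most genes keep the same level. With edgeR's quasi-likelihood test and Benjamini-Hochberg adjustment, 7 of 12716 tested genes, or 0.055%, passed the threshold of an adjusted p under 0.05. DESeq2 called 146 of 13395 genes, or 1.09%.

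Tsc1 encodes hamartin, the scaffold subunit that stabilises the Tsc complex, and it is the gene targeted in the knockout group. The gene lies on the plus strand at chr2:28641228-28691167 (GRCm38). Its level in the 5 wild-type libraries was 12.2, 9.77, 10.7, 11.5 and 9.55 CPM. In the 6 knockout libraries the lowest was 8.31, the median 10.1 and the highest 11.9 CPM. The groups overlapped: 4 of 6 knockout libraries lay within the wild-type range, and 2, at 8.31 and 9.05 CPM, lay below it. The wild-type mean was 10.7 ± 1.11 CPM (SD, n = 5) and the knockout mean 10.1 ± 1.33 CPM (SD, n = 6). This gave a log2 fold change of -0.09 ± 0.11 (SE), with an adjusted p of 0.772 by edgeR's quasi-likelihood test. It was -0.16 with offsets for transcript length and -0.15 on the authors' deposited values, and leaving out 1 library gave -0.03 (without knockout replicate 1) to -0.13 (without knockout replicate 2). In the edgeR fit with TMM scaling alone, the 95% interval of the knockout level ran from 80.4% to 110% of wild-type, so a loss of Tsc1 RNA to below 80.4% of the wild-type level lies outside that interval, and a smaller loss could not be told from none. Between 234 and 392 reads per library stood behind these values. In such whole-gland RNA, fewer cells of a type and less RNA per cell cannot be told apart. As the exons that Cre removes are not named in the labels, the gene's total does not check them.

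Single transcripts of Tsc1 were then compared. The annotation gives 6 coding transcripts and the deposited tables list 5 of them, as Tsc1-204 has the same coding sequence as Tsc1-201. The transcripts Tsc1-201, Tsc1-202 and Tsc1-203 hold the full reading frame in coding exons 3 to 23 and differ in 2 short optional pieces. Tsc1-201 has 3483 coding bases. Tsc1-202 lacks 15 bases at the start of exon 17, at chr2:28678952-28678966 (plus strand, GRCm38). Tsc1-203 gains 3 bases at the start of exon 12, at chr2:28672782-28672784. Tsc1-207 and Tsc1-211 are annotated as substrates of nonsense-mediated decay and end before exon 17, Tsc1-211 in an extended exon 10. The 2 junctions that separate the full-length transcripts are given 5′ to 3′ with 30 bases on either side, because assignment of a read to one of them rests on these letters. Capitals mark the optional bases, and all come from the GENCODE M21 transcripts.
Tsc1-201, exon 16 to 17: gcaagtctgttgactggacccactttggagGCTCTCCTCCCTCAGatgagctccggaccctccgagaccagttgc
Tsc1-202, exon 16 to 17: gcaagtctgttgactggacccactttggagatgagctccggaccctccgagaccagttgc
Tsc1-203, exon 11 to 12: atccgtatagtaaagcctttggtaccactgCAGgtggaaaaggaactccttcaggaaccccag
Tsc1-201, exon 11 to 12: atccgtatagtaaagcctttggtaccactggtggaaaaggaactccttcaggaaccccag

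Tsc1-201 carried most of the Tsc1 signal in both genotypes. Shares are of the gene's TPM, a level corrected for transcript length. Its share in the 5 wild-type libraries was 67.3%, 61.7%, 69.4%, 70.2% and 49.7%. In knockout libraries it ran from 63.0% over a median of 75.3% to 83.4%. In 4 of 6 knockout libraries the share lay above the highest wild-type library, and in the other 2 it lay within the wild-type range. The means were 74.0% ± 7.95 (SD, n = 6) and 63.6% ± 8.48 (SD, n = 5), with p = 0.0736 in a two-sided exact permutation test of 6 against 5 libraries (smallest possible p 0.00433) and an adjusted p of 0.182 over the 3 Tsc1 transcripts tested by exact permutation. The difference of 10.3 percentage points was 6.85 without wild-type replicate 5. Its own level did not pass the transcript test: the log2 fold change was 0.05 ± 0.17 (SE), with an adjusted p of 0.968 by edgeR.

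Tsc1-202, the form without the 15 bases, held 7.66%, 24.8%, 16.0%, 25.9% and 38.4% of Tsc1 TPM in the wild-type libraries. In knockout libraries its share ran from 9.57% over a median of 11.8% to 26.4%. The single library at 7.66%, wild-type replicate 1, lay below all knockout libraries, while 5 of 6 knockout libraries lay below the next wild-type value of 16.0%. The means were 14.0% ± 6.35 (SD, n = 6) and 22.5% ± 11.5 (SD, n = 5), with p = 0.182 in the exact permutation test and the same value after adjustment. The difference of -8.54 percentage points was -4.58 without wild-type replicate 5. As a transcript level it gave a log2 fold change of -0.76 ± 0.36 (SE), with an unadjusted p of 0.0570 and an adjusted p of 0.584 by edgeR. The data do not separate the genotypes in the use of this transcript, and they do not exclude a difference of that size: the 95% interval ran from 34.3% to 102% of the wild-type level.

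Tsc1-203, the form with the extra CAG, was listed above 0 in 4 knockout libraries and at 0 in all 5 wild-type libraries. Its estimated reads were 41.0 in knockout replicate 1, 7.97 in replicate 2, 8.19 in replicate 4 and 24.1 in replicate 5, and 0 in replicates 3 and 6. With this share of Tsc1 TPM at 10.2% or less in every library, Tsc1-203 fell below the 5% mean share set for a test of transcript shares; its CAG was tested among the optional pieces, as given further on. A listing at 0 is a model's estimate and not a count of reads without the CAG, and neither Tsc1-201 nor Tsc1-203 has a single 31-base word that all other listed Tsc1 transcripts lack, against 28 such words in Tsc1-202 and 77 in Tsc1-211. Tsc1-207 was at 0 in all 11 libraries. Tsc1-211 held 8.16% ± 3.45 (SD, n = 6) of knockout and 13.8% ± 7.55 (SD, n = 5) of wild-type Tsc1 TPM (exact permutation p = 0.143, adjusted p = 0.182). The difference of -5.66 percentage points was -2.85 without wild-type replicate 1 and -1.82 when counted in estimated reads. Because this transcript is short, 1107 bases, that share rested on 1.72 to 27.1 reads per library.

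**Figure D1:**
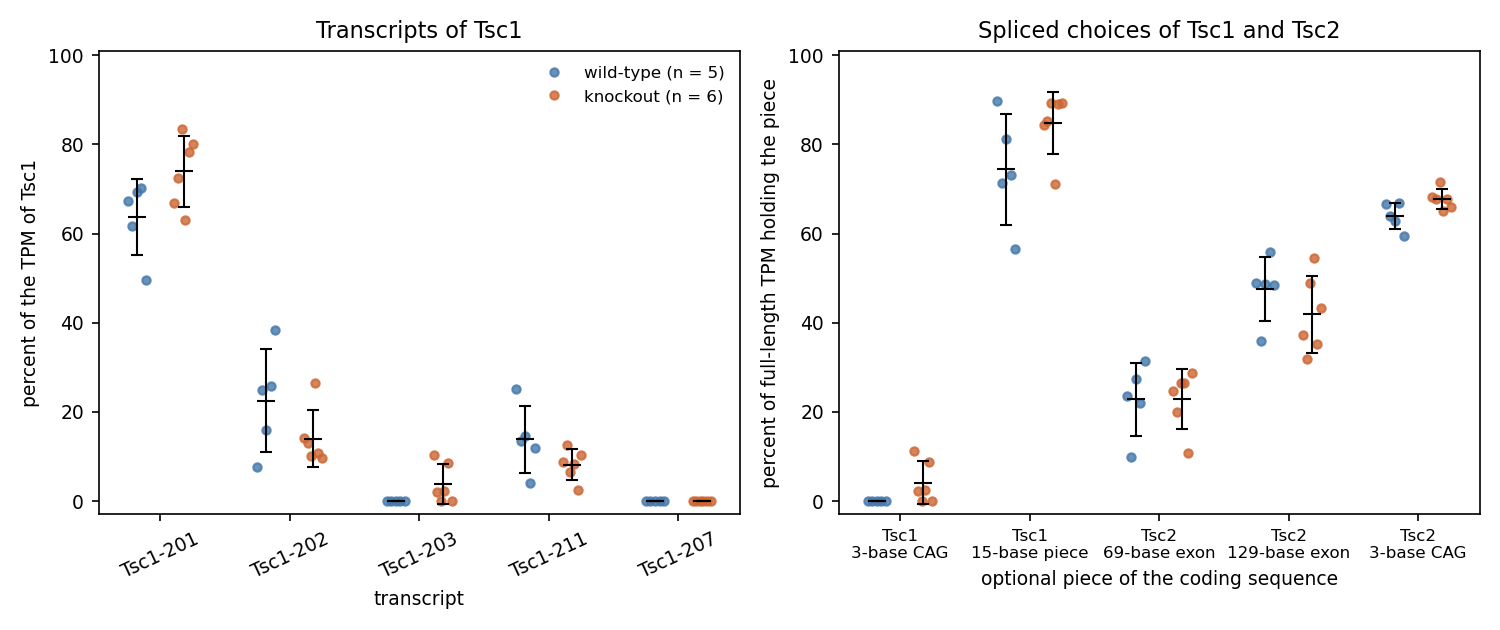
Left, percent of Tsc1 TPM (vertical axis) held by each listed Tsc1 transcript; right, percent of the full-length TPM of Tsc1 or Tsc2 that holds each optional piece. Points are libraries (blue wild-type, n = 5; orange knockout, n = 6), and black marks show mean and SD; the genotypes overlap in every column, and Tsc1-203 lies above 0 in 4 knockout libraries and in no wild-type library.

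Tsc2 encodes tuberin, the subunit with the GTPase-activating domain. It lies on the minus strand at chr17:24595816-24632630. Its wild-type levels were 37.6, 42.1, 44.8, 36.9 and 39.7 CPM, and knockout levels ran from 35.5 over a median of 37.5 to 39.8 CPM. The groups overlapped, with 2 knockout libraries, both at 35.5 CPM, below the lowest wild-type library. Its log2 fold change was -0.11 ± 0.07 (SE), with an adjusted p of 0.529 by edgeR, and the 95% interval was 83.9% to 103% of wild-type. The log2 fold change of Tsc2 was -0.07 without wild-type replicate 3 and with offsets for transcript length, and -0.06 on the authors' deposited values. The knockout libraries were closer together, at 37.3 ± 1.63 CPM (SD, n = 6), than the wild-type ones, at 40.2 ± 3.24 CPM (SD, n = 5).

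Unlike Tsc1, whose main transcript held 69.3% of its TPM on average, Tsc2 was spread over several coding transcripts. Tsc2-221 held 30.2% of Tsc2 TPM on average, Tsc2-217 held 20.3%, Tsc2-203 held 19.3%, Tsc2-205 held 18.9% and the 714-base Tsc2-219 held 11.3%. The share of the short Tsc2-219 rested on 6.14 to 25.6 estimated reads per library, beside 1008 to 1599 for the gene. The 3 optional pieces, each a whole number of codons, separate the 4 full-length forms. Tsc2-217 alone includes a 69-base exon, its exon 32, at chr17:24601389-24601457 (minus strand, GRCm38). Both Tsc2-217 and Tsc2-203 include a 129-base exon, exon 26 of Tsc2-203, at chr17:24606224-24606352. The other is a CAG at chr17:24604990-24604992, present in Tsc2-205 and missing from Tsc2-221. The optional letters of these pieces, with 30 bases on either side, are shown in capitals as above.
Tsc2-217, with the 69-base exon: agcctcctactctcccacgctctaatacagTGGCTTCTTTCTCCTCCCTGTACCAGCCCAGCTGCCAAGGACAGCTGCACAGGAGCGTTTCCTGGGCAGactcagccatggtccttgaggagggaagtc
Tsc2-203, without it: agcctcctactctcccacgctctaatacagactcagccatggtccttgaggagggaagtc
Tsc2-203, with the 129-base exon: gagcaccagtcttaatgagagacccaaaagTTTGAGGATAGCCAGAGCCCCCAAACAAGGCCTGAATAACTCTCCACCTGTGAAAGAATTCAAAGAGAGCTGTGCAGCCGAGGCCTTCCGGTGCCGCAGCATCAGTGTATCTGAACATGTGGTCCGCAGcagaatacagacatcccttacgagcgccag
Tsc2-205, without it: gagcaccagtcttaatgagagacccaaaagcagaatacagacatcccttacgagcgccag
Tsc2-205, with the CAG: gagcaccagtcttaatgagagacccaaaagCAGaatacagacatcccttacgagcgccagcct
Tsc2-221, without it: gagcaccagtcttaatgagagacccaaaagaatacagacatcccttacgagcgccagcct

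The optional pieces of both genes were scored as the percent of full-length TPM that includes them, a measure chosen after the listed transcripts were seen. The 69-base exon of Tsc2 was in 22.8% of full-length Tsc2 on average and the 129-base exon in 44.5%, so that on average most full-length Tsc2 RNA of these glands lacked each. The 3-base CAG of Tsc2 was in 66.0%. In wild-type libraries the CAG share was 66.6%, 64.0%, 62.7%, 66.8% and 59.5%, and in knockout libraries it ran from 64.9% over a median of 67.7% to 71.5%. Of the knockout libraries, 4 lay above the highest wild-type library. The means, 67.7% ± 2.25 (SD, n = 6) against 63.9% ± 3.02 (SD, n = 5), gave an exact permutation p of 0.0390, and 0.195 after adjustment over the 5 optional pieces. The 15-base piece of Tsc1 was in 84.7% ± 6.98 (SD, n = 6) of knockout and 74.4% ± 12.4 (SD, n = 5) of wild-type full-length Tsc1 (exact permutation p = 0.121, adjusted p = 0.202), and the difference of 10.3 percentage points was 5.86 without wild-type replicate 5. The CAG of Tsc1, carried by Tsc1-203, was in 4.14% ± 4.74 (SD, n = 6) of knockout full-length Tsc1 and listed at 0 in wild-type libraries (exact permutation p = 0.0909, adjusted p = 0.202), and the difference was 2.73 percentage points without knockout replicate 1. None of the 5 passed after adjustment.

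Tbc1d7 encodes the small further subunit, which binds Tsc1 and stabilises the complex. It lies at chr13:43151740-43171501 (minus strand). It was measured on few reads, 63 to 141 per library, with 2.87, 3.17, 3.52, 1.91 and 3.69 CPM in wild-type and 3.01 to 3.41 CPM in knockout libraries. All knockout libraries lay within the wild-type range, which wild-type replicate 4, at 1.91 CPM, widened downward. The log2 fold change was 0.08 ± 0.15 (SE), with an adjusted p of 0.858 by edgeR. Other settings gave higher values: the log2 fold change was 0.39 with offsets for transcript length, 0.40 on the authors' deposited values, and 0.44 and 0.60 on log2 TPM with pseudocounts of 1 and 0.1. None of these passed the test, with adjusted p of 0.460 by edgeR and 0.475, 0.251 and 0.238 by limma. On log2 TPM the median of all genes itself moved toward knockout, by 0.14 and 0.21 with these pseudocounts. Relative to that shift Tbc1d7 was at 0.30 and 0.39. In TPM, 5 of 6 knockout libraries lay above every wild-type library, at 1.86 to 4.35 in knockout and 1.45 to 2.21 in wild-type libraries. A 225-base transcript, Tbc1d7-206, had 1.75 to 5.33 estimated reads in knockout replicates 1, 5 and 6 and took 22.7% to 40.1% of the gene's TPM there. It was at 0 in knockout replicates 2 and 3, which at 2.66 and 2.23 TPM also lay above the wild-type libraries and in which Tbc1d7-208 held 35.2% and 46.9%. The main transcript, Tbc1d7-202, held 58.9% ± 14.9 (SD, n = 6) of knockout and 81.5% ± 13.2 (SD, n = 5) of wild-type Tbc1d7 TPM (exact permutation p = 0.0346, adjusted p = 0.576), a difference of -22.5 percentage points that was -10.7 when counted in estimated reads.

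Rheb, whose protein carries the signal from the Tsc complex to mTORC1, lies at chr5:24802823-24842624 (minus strand) with a single listed transcript of 555 coding bases. It had 44.9, 39.9, 45.0, 36.6 and 40.9 CPM in wild-type libraries and 34.3 to 43.9 CPM in knockout libraries, 2 of which lay below the wild-type range. The log2 fold change was -0.11 ± 0.08 (SE), with an adjusted p of 0.619 by edgeR, and was -0.07 without knockout replicate 1. No 31-base word of Rheb, or of any of the other 9 genes, occurred in the same orientation in an annotated transcript of another gene.

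Mtor, the kinase of both complexes, lies at chr4:148448611-148557683 (plus strand). Its wild-type levels were 27.8, 28.9, 27.8, 24.6 and 23.0 CPM, and its knockout levels ran from 21.5 over a median of 25.9 to 30.1 CPM. The lowest and the highest of the 11 libraries were both knockout, and the log2 fold change was -0.02 ± 0.09 (SE), with an adjusted p of 0.940 by edgeR. Rptor encodes Raptor, which recruits substrates to mTORC1, and lies at chr11:119602905-119899576 (plus strand). It had 19.5, 19.7, 20.8, 17.3 and 16.7 CPM in wild-type libraries and 16.1 to 19.7 CPM in knockout libraries, 5 of which lay between 16.1 and 17.4 CPM. Its log2 fold change was -0.12 ± 0.08 (SE), with an adjusted p of 0.572 by edgeR, and was -0.08 without wild-type replicate 3.

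Rictor gave the largest difference of the 10 genes on the TMM scale. On log2 TPM with pseudocount 1 its log2 fold change, 0.20, was below those of Tbc1d7 (0.44) and Mlst8 (0.31). That pseudocount exceeds the mean level of Rictor, 0.322 TPM, and so shrinks its fold change. With pseudocount 0.1 Rictor was at 0.66, above Tbc1d7 (0.60) and Mlst8 (0.41). The gene, at chr15:6708379-6800401 (plus strand), encodes the scaffold of mTORC2, the complex that phosphorylates Akt and is not a direct target of Rheb. Its wild-type levels were 4.45, 1.46, 2.42, 3.37 and 3.76 CPM, and its knockout levels were 4.35, 3.38, 6.08, 5.14, 3.56 and 6.43 CPM. In 3 knockout libraries the level was above every wild-type library, and the other 3 lay within the wild-type range. The wild-type mean was 3.09 ± 1.169 CPM (SD, n = 5) and the knockout mean 4.82 ± 1.278 CPM (SD, n = 6). The log2 fold change was 0.64 ± 0.26 (SE), with a 95% interval of 105% to 232% of wild-type. The unadjusted p of 0.0319 became 0.365 after adjustment over all genes by edgeR, and 0.254 by DESeq2, so Rictor did not pass the test. Reads ranged from 35, in wild-type replicate 2, to 226, and without that library the log2 fold change was 0.46.

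The groups also overlapped for the remaining subunits and the substrate kinase. Mlst8, which encodes the LST8 subunit shared by both complexes (chr17:24473551-24479078, minus strand), had 4.06 to 5.35 CPM in wild-type and 4.43 to 5.95 CPM in knockout libraries. Akt1s1 encodes PRAS40, an inhibitor and substrate of mTORC1 (chr7:44848991-44855421, plus strand), and had 26.6 to 32.9 CPM in wild-type and 25.5 to 30.8 CPM in knockout libraries. Rps6kb1 (chr11:86498871-86544805, minus strand) had 13.7 to 18.3 CPM in wild-type and 12.4 to 20.9 CPM in knockout libraries, with the highest and the lowest library both knockout. The log2 fold changes were 0.10 ± 0.11 (SE) for Mlst8, -0.12 ± 0.07 for Akt1s1 and -0.03 ± 0.12 for Rps6kb1, with adjusted p of 0.740, 0.511 and 0.935 by edgeR. In TPM, 5 of 6 knockout libraries lay above every wild-type library for Mlst8, at 3.26 ± 0.552 (SD, n = 6) against 2.42 ± 0.402 TPM (SD, n = 5). Rictor had the same count in TPM. The log2 fold change of Mlst8 was 0.21 with offsets for transcript length (adjusted p = 0.645 by edgeR). It was 0.20 on the authors' deposited values, and 0.31 and 0.41 on log2 TPM with pseudocounts of 1 and 0.1 (adjusted p = 0.679, 0.263 and 0.249 by limma). On log2 TPM the median of all genes itself moved toward knockout, by 0.14 and 0.21 with these pseudocounts. Relative to that shift Mlst8 was at 0.17 and 0.20. On the TMM scale Mlst8 was at 0.05 without wild-type replicate 1 and also without knockout replicate 3.

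**Figure D2:**
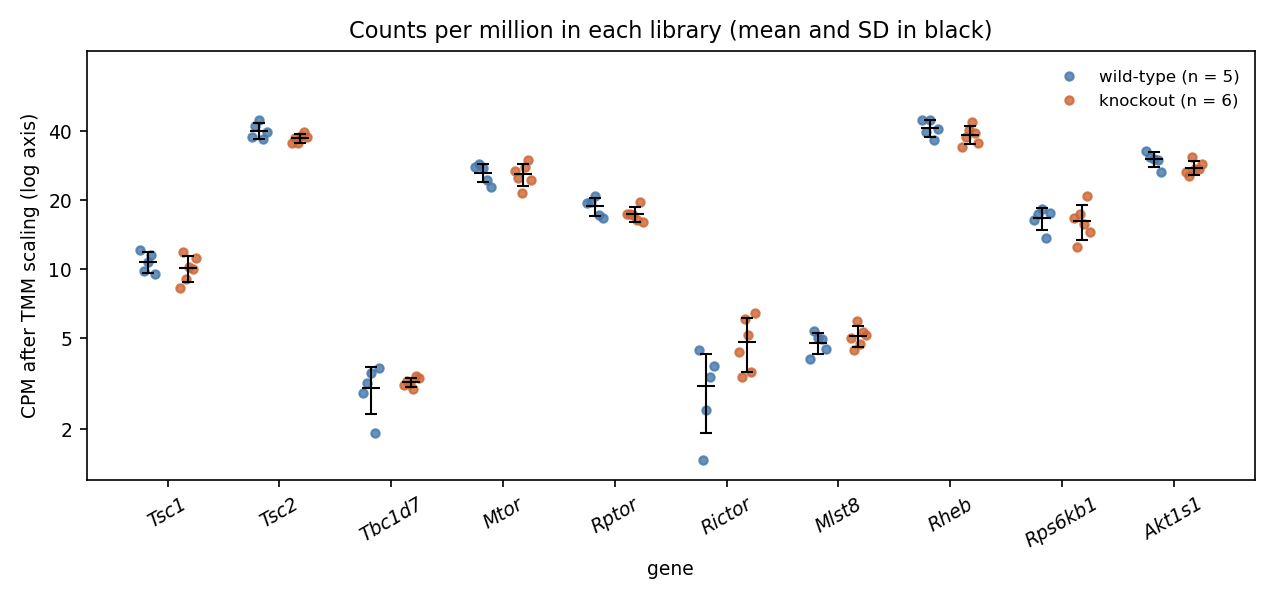
Level of each of the 10 genes in each library (vertical log axis, CPM after TMM scaling; blue wild-type, n = 5; orange knockout, n = 6; black marks, mean and SD). The genotypes overlap for all 10 genes; Rictor has 3 knockout libraries above every wild-type library.

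All 10 genes passed the filter on low counts and 0 of 10 passed the adjusted threshold, which 0.055% of all genes passed by edgeR and 1.09% by DESeq2. Adjusted p ran from 0.365 to 0.940 by edgeR. An unadjusted p under 0.05 was met by 1 of 10, Rictor, beside 12.4% of all genes tested. The genotypes overlapped in CPM for all 10, while 1.32% of all genes tested had groups that did not overlap. The log2 fold change was above 0 for 3 genes and below 0 for 7, with a median of -0.06 beside -0.01 over all genes tested. Apart from Rictor, the 95% intervals of the other 9 genes lay between 80.4% and 133% of wild-type on this scale; under other settings the estimate for Tbc1d7 was higher, as given above. These signs hold for the TMM scale. On log2 TPM, which carries no such scaling, the median of all genes shifted by 0.14 (log2, pseudocount 1) toward knockout, and Tsc1, Tsc2, Mtor, Rptor, Rheb, Rps6kb1 and Akt1s1 changed sign, Mtor also with offsets for transcript length; relative to that shift Tsc1 was at -0.10, Tsc2 at -0.02, Rptor at -0.06, Rheb at -0.03 and Akt1s1 at -0.06, while Mtor, at 0.03, and Rps6kb1, at 0.01, stayed above 0.

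**Figure D3:**
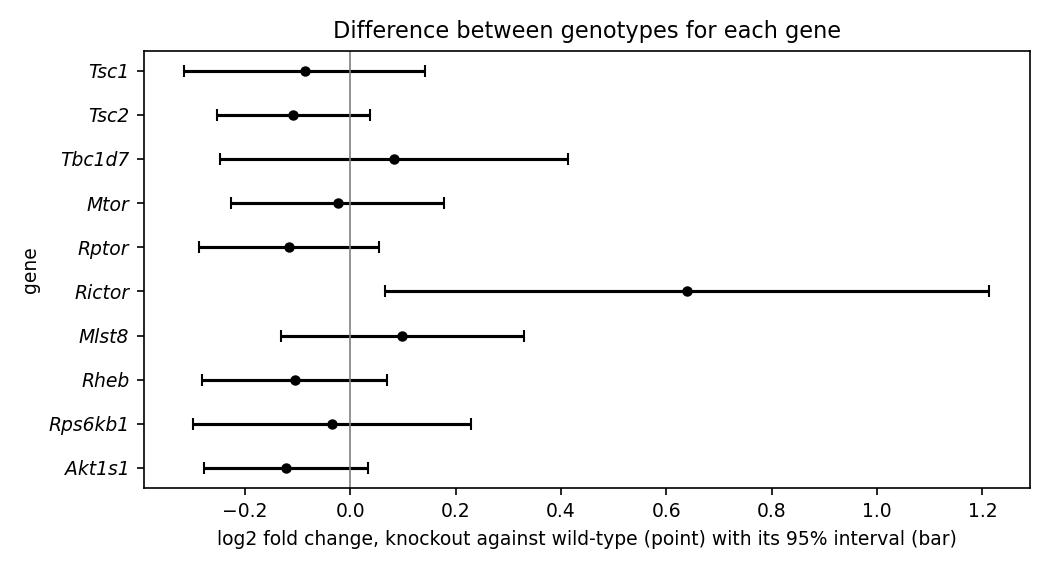
Log2 fold change of knockout against wild-type for each gene (point) with its 95% interval (bar) from edgeR's fit; the grey line is no difference. The intervals of 9 genes include 0, and that of Rictor starts just above it, with an adjusted p of 0.365.

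Of the 48 listed transcripts of the 10 genes, 15 were at 0 in all libraries and 20 passed the filter on low counts. None of these 20 passed the adjusted threshold by edgeR, beside 0.00537% of all 18620 transcripts tested, and the lowest adjusted p was 0.521. Unadjusted p under 0.05 was met by 2 of them, Rictor-201 and Tsc2-221, beside 8.75% of all transcripts tested. The log2 fold change of Tsc2-221, the form without the CAG, was -0.26 ± 0.11 (SE, adjusted p = 0.521 by edgeR). Of 19 transcript shares in 7 genes other than Tsc1, 1 had an unadjusted exact permutation p under 0.05, that of Tbc1d7-202 given above, and none passed after adjustment.

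Levels were compared between genes in TPM over all 11 libraries. TPM divides by the effective length that Salmon estimates for each transcript, which is not its coding length. Rheb was the most abundant at a mean of 57.0 TPM, followed by Akt1s1 at 18.2, Rps6kb1 at 5.29, Tsc2 at 2.90, Mlst8 at 2.88, Tbc1d7 at 2.43, Rptor at 1.70, Mtor at 1.51, Tsc1 at 1.21 and Rictor at 0.322 TPM. Rheb exceeded Akt1s1 3.15-fold, and Akt1s1 exceeded Rps6kb1 3.46-fold, each in 11 of 11 libraries (exact sign-flip permutation, two-sided, adjusted p = 0.0022 over 9 neighbouring pairs). Tsc2 and Mlst8 did not differ beyond their spread (higher in 8 of 11 libraries, adjusted p = 0.753 by the same exact test). At the lower end Mtor exceeded Tsc1 1.23-fold in 9 of 11 libraries (adjusted p = 0.0163, exact permutation), and Tsc1 exceeded Rictor 4.10-fold in 11 of 11 (adjusted p = 0.0022, exact permutation). Estimated reads per kilobase of listed length, scaled to library size as RPKM is, a measure added after the data were seen, gave the same order except for Tbc1d7. On that scale Tbc1d7, at a mean of 3.82, was below Rptor, at 4.53, and Mtor, at 3.93, and it was below Rptor in 9 of 11 libraries (adjusted p = 0.00439, exact permutation). Tsc2, at 7.77, was above Mlst8, at 5.22, in 11 of 11 libraries (adjusted p = 0.00146, exact permutation). Rheb was at 71.6, or 2.20-fold above Akt1s1 at 32.7. On both scales the transcripts of the GTPase at the junction of the pathway stood far above those of the kinase and of the Tsc subunits in these glands.

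The balance within complexes was compared as ratios of TPM within a library. The Tsc1 to Tsc2 ratio had a median of 0.389 over the 11 libraries, 0.337 to 0.478 in knockout and 0.369 to 0.596 in wild-type libraries, with a log2 difference of -0.09 (exact permutation p = 0.571). The Tsc1 to Tbc1d7 ratio differed by -0.55 on the log2 scale, with 4 of 6 knockout libraries below all wild-type ones (exact permutation p = 0.0606, adjusted p = 0.110 over 3 ratios); counted in reads, the difference was -0.21. The Rptor to Rictor ratio, which sets the defining subunits of mTORC1 and mTORC2 side by side, ran from 3.00 to 6.98 in knockout and from 5.19 to 16.7 in wild-type libraries. Its log2 difference was -0.79, or -0.52 without wild-type replicate 2, with 4 of 6 knockout libraries below all wild-type ones (exact permutation p = 0.0736, adjusted p = 0.110). No ratio passed the test.

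The rest of the pathway was read from lists of 85 genes in all, of which 82 passed the filter on low counts; none of the 82 passed the adjusted threshold by edgeR or by DESeq2, beside 0.055% and 1.09% of all genes. Members aside, 72 genes were tested, with 26 above and 46 below wild-type, a median log2 fold change of -0.06 beside -0.01 over all genes, and 5 with an unadjusted p under 0.05 beside 12.4% of all genes. Of the list of Rag GTPases, Ragulator and amino acid sensors, 5 of 25 tested genes were above and 20 below wild-type, with a median log2 fold change of -0.09; on log2 TPM 21 were above, or 10 relative to the shift of all genes. Its smallest p-values belonged to Lamtor2, a Ragulator subunit that anchors Rag GTPases to the lysosome, with a wild-type mean of 27.0 ± 3.55 CPM (SD, n = 5), a knockout mean of 21.7 ± 2.15 CPM (SD, n = 6) and a log2 fold change of -0.31 ± 0.10 (SE, adjusted p = 0.282 by edgeR), and to Wdr24, a subunit of the GATOR2 complex, at -0.20 ± 0.09 (SE, adjusted p = 0.396 by edgeR). Both changed sign on TPM, as described for the members.

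Of the insulin, PI3K and Akt list, 9 of 12 genes were above and 3 below wild-type, with a median log2 fold change of 0.13, and on log2 TPM 11 were above, or 9 relative to the shift. Pik3r1, the regulatory subunit of PI3K, had a wild-type mean of 85.9 ± 13.7 CPM (SD, n = 5) and a knockout mean of 108 ± 12.4 CPM (SD, n = 6), with 4 of 6 knockout libraries above all wild-type ones and a log2 fold change of 0.33 ± 0.11 (SE, adjusted p = 0.310 by edgeR). Pdpk1, the kinase that activates Akt and S6 kinase, was at 0.47 ± 0.29 (SE, adjusted p = 0.535 by edgeR), and at 0.24 without wild-type replicate 2. Of the energy and stress list, 5 of 11 tested genes were above and 6 below wild-type, and on log2 TPM 9 were above, or 7 relative to the shift. Ddit4, whose stress-induced product REDD1 restrains mTORC1 through the Tsc complex, was at -0.61 ± 0.28 (SE, adjusted p = 0.404 by edgeR), and 4 of 6 knockout libraries lay below all wild-type ones. Without wild-type replicate 1 its value was -0.33, and on log2 TPM it was -0.35. Stk11, the kinase LKB1 that activates AMP-activated kinase, was at -0.14 ± 0.07 (SE, adjusted p = 0.426 by edgeR; of opposite sign on TPM).

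Of the mTORC1 substrates and their effectors, 6 of 21 genes were above and 15 below wild-type, and on log2 TPM 18 were above, or 10 relative to the shift. Lpin1, a phosphatidic acid phosphatase that mTORC1 phosphorylates, had a wild-type mean of 154 ± 44.7 CPM (SD, n = 5) and a knockout mean of 104 ± 25.1 CPM (SD, n = 6), and its log2 fold change was -0.56 ± 0.21 (SE, adjusted p = 0.341 by edgeR). Eef2k, the kinase that inhibits elongation factor 2 and is itself inhibited downstream of mTORC1, was at -0.36 ± 0.14 (SE, adjusted p = 0.350 by edgeR). Among the other subunits of the mTOR complexes, the mTORC2 subunits Prr5 and Prr5l were at -0.22 ± 0.15 and -0.14 ± 0.39 (SE; adjusted p = 0.589 and 0.912 by edgeR), Prr5 changing sign on TPM and Prr5l resting on 4 to 18 reads per library. The value for Prr5l was -0.93 with offsets for transcript length, -1.03 on the authors' deposited values, and -0.36 and -0.73 on log2 TPM with pseudocounts of 1 and 0.1.

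**Figure D4:**
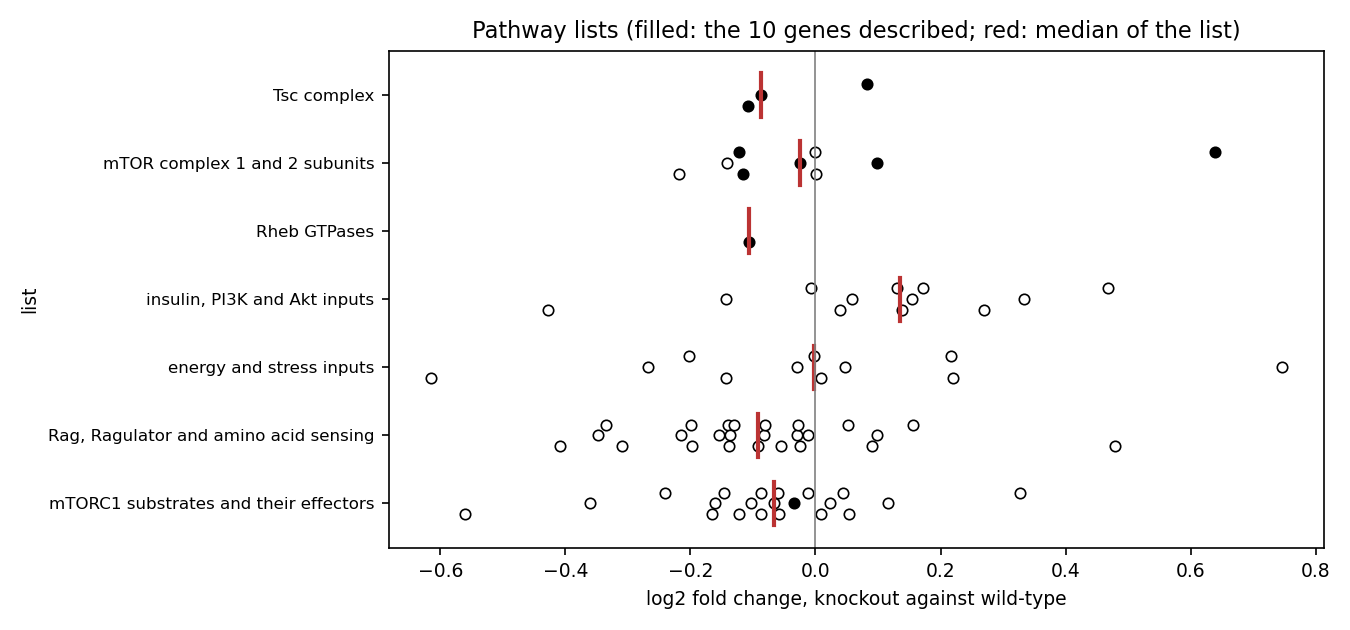
Log2 fold change of knockout against wild-type (horizontal axis) for every tested gene of the 7 pathway lists (filled, the 10 genes described; open, other genes; red, median of each list). The insulin, PI3K and Akt list has its median at 0.13 and the amino acid sensing list at -0.09; no gene passed the adjusted threshold.

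The summed levels of cell type markers overlapped between the genotypes for all 8 lists, and none differed after adjustment over the lists. The lowest p-values were those of adipocytes (exact permutation p = 0.00866, adjusted p = 0.0693) of secretory luminal epithelium (exact permutation p = 0.0433, adjusted p = 0.127) and of B cells (exact permutation p = 0.0476, adjusted p = 0.127). The sum of the 12 adipocyte markers was 1176 to 1654 CPM in wild-type and 1613 to 2235 CPM in knockout libraries, with means of 1397 and 1862 CPM. Cfd alone made up most of that difference, with means of 527 CPM in wild-type and 905 CPM in knockout libraries. Of the 12 markers, 10 were above wild-type, while Lep and Pnpla2 were below it. An unadjusted p under 0.05 by edgeR was met by 7 of them, beside 12.4% of all genes tested, but none passed the adjusted threshold. Adipoq itself, whose promoter drives the Cre transgene, was at 47.7 ± 5.82 CPM (SD, n = 6) against 36.1 ± 5.66 CPM (SD, n = 5), and was detected in every library. Of the 8 secretory luminal markers 6 were below wild-type (4 on log2 TPM, or 6 relative to the shift), and all 6 myoepithelial markers were above it (in sum 364 to 658 CPM in wild-type and 455 to 634 CPM in knockout libraries). B cell markers summed to 1.93 to 69.8 CPM in wild-type and 0.808 to 13.8 CPM in knockout libraries. Of the 6 B cell markers 4 passed the filter on low counts, and all 4 were below wild-type with an unadjusted p under 0.05 and a median log2 fold change of -2.77, but none passed the adjusted threshold by edgeR. T cell markers summed to 0.876 to 21.8 and 1.09 to 6.42 CPM. In the same order, macrophage markers summed to 64.8 to 107 and 49.1 to 93.0 CPM, endothelial markers to 74.2 to 114 and 71.6 to 116 CPM, and skeletal muscle markers to 1.41 to 172 and 2.38 to 2040 CPM. All 5 tested T cell markers were below wild-type, and all 6 skeletal muscle markers were above it. Of the macrophage markers 2 were above and 4 below, and of the endothelial markers 4 were above and 2 below. No marker was at 0 in all libraries. The part of these levels in the values of the 10 genes was not tested.

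Genes whose levels ran most like those of 3 members were named by Pearson's r of log2 CPM over the 11 libraries, centred within genotype, among 7473 genes with a mean of at least 5 CPM. These values are descriptions over libraries that share depth and tissue composition. As the highest of 7473 values over 11 libraries, they are raised by the selection itself, and r of this size can arise from it alone. For Tsc1 the genes were Pdk4 (r = 0.905), Tbc1d17 (0.898) and P2rx7 (0.898). Arhgef40 (0.925), Kpna6 (0.921) and Scaf1 (0.920) ran most like Mtor. Abtb2 (0.898), P4ha2 (0.893) and Rnaseh2a (0.893) ran most like Rptor. Among the members, Mtor and Rptor were the most alike pair (r = 0.668), and Tsc1 and Tsc2, partners in one complex, had an r of -0.01.

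Of the 10 genes, 6 overlap a gene on the opposite strand: Tsc2 with Pkd1, Mtor with Angptl7, Rptor with Gm11761 and Rptoros, Mlst8 with Bricd5, Rps6kb1 with Rnft1, and Akt1s1 with Tbc1d17. The library kit keeps the strand, but whether the quantification used it is not given in the sources used here, so reads of such partners may not have been told apart where they overlap. In the authors' deposited table of normalized values, the wild-type mean of Tsc1 was 343 ± 51.8 (SD, n = 5) and its knockout mean 309 ± 45.7 (SD, n = 6), and those of Rictor were 96.2 ± 36.7 and 150 ± 40.7, with overlapping groups for both. In the same deposited table Tbc1d7 had a wild-type mean of 84.2 ± 17.1 (SD, n = 5) and a knockout mean of 111 ± 22.2 (SD, n = 6), with 5 of 6 knockout libraries above every wild-type one.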

How the data were processed

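Per the labels' protocols, directional Illumina libraries were prepared from total RNA of whole inguinal mammary glands. For each of the 11 libraries the authors deposited a table of transcripts with estimated counts, TPM and effective lengths, per the file headers; the submitters' processing notes name Salmon 1.3.0, DESeq2 1.28.1 and GRCm38.p6. A further deposited table holds gene values that its name calls DESeq2-normalized; they are used as a signal on the authors' scale. Of the listed transcripts with a coding sequence in GENCODE M21, 94.3% had a length within 3 bases of it, so the estimates rest mostly on coding sequence; transcripts with the same coding sequence were listed once. The index, bias options and strand setting are not given in the sources used here.

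Estimated counts were summed per gene by GENCODE M21 identifiers and rounded to whole numbers; 752 unmatched transcripts, with 0.195% to 0.265% of a library's reads, were left out. The 12716 genes that passed edgeR's filterByExpr were fitted with TMM scaling and robust quasi-likelihood (edgeR 4.0.16 in R 4.3.3; biological coefficient of variation 24.1%), on genotype alone, with p-values adjusted over all genes by Benjamini-Hochberg; 18620 transcripts were fitted in the same way. Standard errors were derived from the fold change and its F statistic. Fits were tested on simulated counts. Shares, ratios and optional pieces were compared by two-sided exact permutation tests and the order of levels by an exact sign-flip permutation test (scipy 1.17.1). Alternatives used DESeq2 1.42.0, limma 3.58.1, other scalings, length offsets, a replicate block and the omission of each library.

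Named were the 10 genes, from each pathway list the 2 other genes with the smallest p-value, every Tsc1 transcript and each transcript with at least 5% of its gene's TPM, and the 3 genes most like Tsc1, Mtor and Rptor; of the transcripts of other members only those with a result to describe are named in the text. Members and lists were chosen with earlier results of these data known. The sample titles give the genotype and the replicate number. No sequencing batch is named in the labels.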

Additional observations from a re-analysis of the deposited data

Results flagged for a closer look

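Of 100 sets of values per genotype that were checked, 10 had a highest or lowest library whose gap to its nearest neighbour exceeded Dixon's 95% critical value for the group's range. For normally distributed values chance alone flags about 1 in 20, or 5 of 100. That rate does not hold for shares bounded at 0% and 100%. Where all other libraries are tied at 0% or 100%, any departing library is flagged. Whether 10 is more than chance gives can therefore not be judged. At the gene level the flag fell on Rptor in knockout replicate 5, at 19.7 CPM against 16.1 to 17.4 in the other 5 knockout libraries. Knockout replicate 4 stood apart in the use of Tsc1-202, with 26.4% of Tsc1 TPM against 9.57% to 14.2% in the other knockout libraries, and accordingly in the 15-base piece of Tsc1, at 71.2% against 84.4% to 89.3%. Wild-type replicate 3 had 52.6% of Mlst8 TPM on Mlst8-210 and 47.4% on Mlst8-202, against 0% and 100% in the other wild-type libraries, and 41.8% of Akt1s1 TPM on Akt1s1-204 against 29.2% to 31.4%. Wild-type replicate 2 had 33.5% of Tbc1d7 TPM on Tbc1d7-208 against 0%, and 96.2% of Rptor TPM on Rptor-201 against 100%. In that library 471 of 472 estimated Rptor reads were still on Rptor-201. Wild-type replicate 1 had 6.89% of Tsc2 TPM on Tsc2-219 against 10.4% to 11.3%, and knockout replicate 5 had 12.8% of Tbc1d7 TPM on Tbc1d7-209 against 3.33% to 5.77%. These 2 shares rested on 6.16 and 7.80 estimated reads. Several of these sets are linked, since the shares of a gene sum to 100%.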

How the results depend on the processing

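None of the 10 genes and none of the other pathway genes passed the adjusted threshold under any of the 20 alternatives run, except that, among the named genes, Prr5l was fitted under 17 of them. The count over all genes, 7, was 146 with DESeq2, 3 and 4 with limma on log2 TPM (pseudocounts 1 and 0.1), and 0 to 28 when 1 library was left out (0 without knockout replicate 3 or 6, 28 without knockout replicate 2). The count over all transcripts, 1, was 5 with DESeq2's size factors in edgeR, 156 with DESeq2, and 0 to 7 when 1 library was left out. On log2 TPM, with pseudocounts 1 and 0.1, log2 fold changes turned to 0.043 and 0.070 for Tsc1, 0.123 and 0.159 for Tsc2, 0.174 and 0.273 for Mtor, 0.086 and 0.126 for Rptor, 0.115 and 0.117 for Rheb, 0.154 and 0.177 for Rps6kb1, 0.080 and 0.084 for Akt1s1, 0.011 and 0.023 for Prr5, 0.047 and 0.048 for Stk11, 0.0235 and 0.0238 for Lamtor2, and 0.023 and 0.035 for Wdr24, where the median of all genes itself moved by 0.14 and 0.21. Mtor was also at 0.049 with length offsets and 0.063 on the authors' deposited values. The Tsc1 to Tsc2 log2 ratio difference was 0.016 in reads. Leaving out 1 library gave log2 fold changes across 0 for Tbc1d7 (-0.042 to 0.162), Mtor (-0.072 to 0.024), Rps6kb1 (-0.111 to 0.037), Prr5l (-0.340 to 0.046) and Tsc1-201 (-0.062 to 0.162), and for the Tsc1 to Tsc2 ratio (-0.147 to 0.027). It gave differences in percentage points across 0 for the shares of Tsc2-217 (-3.49 to 1.49), Mlst8-210 (-1.33 to 14.7), Rps6kb1-207 (-1.36 to 0.69), Rps6kb1-202 (-0.69 to 1.36) and Akt1s1-203 (-4.93 to 1.98) and for the 69-base exon of Tsc2 (-3.24 to 2.46). The causes were not tested. Rictor kept its sign under all 20 alternatives, with adjusted p from 0.238 to 0.614. On log2 TPM with pseudocount 1, values that kept their sign but moved by over 1.5 times were 0.197 for Rictor, 0.442 for Tbc1d7, 0.314 for Mlst8, 0.603 for Pik3r1, -0.357 for Prr5l, -0.305 for Lpin1 and -0.166 for Eef2k, beside those given with the results. Per listed length in place of TPM, the log2 difference of Tbc1d7 over Rptor was -0.27 and that of Tsc2 over Mlst8 0.587. At 4 to 18 reads per library, counting error alone is large for Prr5l.

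With the replicate number as a block, over replicates 1 to 5 of both genotypes, 0 genes and 0 transcripts passed, and Tsc1 was at -0.11 with an adjusted p of 0.839 by edgeR. The labels do not say whether the numbers pair the libraries. The correlations of same-numbered libraries' deviations were -0.02, -0.10, 0.19, -0.22 and -0.21, and these few values cannot settle it.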
